A study of Danio rerio with 12 samples.

Results

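Macrophages and microglia of zebrafish larval eyes were compared between 4 and 2 days post-injury (dpi) after genetic ablation of the retinal pigment epithelium (RPE), the cell layer behind the photoreceptors. The comparison used the 6 ablated libraries of the 12 in the series, 3 at each time, chosen by the treatment and time in their labels. In the series, mCherry-positive cells were sorted by flow cytometry from dissociated eyes, at most 1000 cells per library, and their RNA was amplified and sequenced. Ablated larvae were bathed in 10 mM metronidazole for 24 h, starting at 5 and ending at 6 days post-fertilisation (dpf). The other 6 libraries, 3 at each time, came from unablated larvae without the drug, so an effect of the drug cannot be told apart from one of ablation. All larvae, ablated or not, had first been kept in 1.5X phenylthiourea, from 0.25 to 5 dpf, which blocks pigment. The sources used here do not give the promoters that drive mCherry and the ablation transgene. A title gives 7 dpf for 1 ablated library at 2 dpi, and larvae at 4 dpi were older by the time between the samplings. The titles of the ablated libraries carry 3 dates at 2 dpi and 1 date at 4 dpi, with none in common, and what a date marks is not stated. Time after injury, larval age and date therefore cannot be told apart in any value below. The labels call the libraries replicates without saying whether each came from its own pool of larvae, so the p-values describe the spread among these libraries, part of which may be technical.

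Macrophages are phagocytes that clear dying cells, and microglia are the macrophages resident in the retina and brain. After tissue damage such cells can divide, take up debris and release inflammatory or repair signals, and later return to a quieter state. A dividing cell needs mitotic and replication proteins, new ribosomes and spliceosomes, while a cell that has taken up debris has to export or store the lipid it holds.

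The 6 libraries ranged from 30536425 to 38935355 counts at 2 dpi and from 31730109 to 35258088 counts at 4 dpi. Levels are in CPM, counts per 1000000 counts of a library after scaling by edgeR's TMM factors, and are listed for replicates 1, 2 and 3. The general macrophage gene mpeg1.1 stood at 2650.4, 2340.2 and 1974 CPM at 2 dpi and 2493, 1688 and 2321 CPM at 4 dpi, and the leukocyte gene ptprc was between 256 and 413 CPM. Both were abundant in every ablated library. RNA of other cells was present too. The 65 photoreceptor genes found in the files, 63 of them tested, took 1.71, 0.257 and 0.0756% of counts at 2 dpi and 0.0598, 3.88 and 0.05% at 4 dpi. Replicate 1 at 2 dpi and replicate 2 at 4 dpi thus stood apart from the other 4 libraries, and they alone had negative values on the first principal component, which held 48.1% of the variance. The epithelial gene epcam varied widely and overlapped between the times, at 218, 34.5 and 908 CPM and 93.3, 258 and 139.8 CPM. Defining markers of lymphocytes (zap70 and cd79a), endothelium (kdrl) and the RPE itself (rpe65a and rlbp1b) were at 0 or under 2 CPM in each of the 6 libraries, while the lymphocyte gene lck reached 2.37 CPM and the endothelial gene cdh5 5.47 CPM in 1 library each. Of the red cell genes, alas2 was under 2 CPM throughout, the globin gene hbae3 was at 29.0 CPM in replicate 3 at 4 dpi and at 0 in the other 5 libraries, and the carbonic anhydrase gene cahz was highest, at 27.0 CPM, in replicate 1 at 2 dpi.

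Between 2 and 4 dpi 7 of 52 tested ribosome biogenesis genes fell in ablated eye macrophages, together with tubulin genes and genes of the spliceosome and the proteasome. Genes that rose included loxl2b and mmp14b, which act on collagen, pltp, abca1a and pparg of lipid handling, and sesn1 and ulk2, regulators of nutrient stress and autophagy. Of 18079 genes tested, 68 rose (0.376%) and 166 fell (0.918%) at an adjusted p under 0.05 by edgeR's quasi-likelihood test, together 234 genes (1.29%). In each of the 234 genes the 3 libraries of 1 time lay wholly above those of the other, which held for 25.4% of all genes tested. Lack of overlap is thus common to all called genes, and where given below for a called gene it adds no support. Genes that rose changed by a median log2 fold change (4 dpi over 2 dpi) of 1.50, and genes that fell by -1.16. The median of all genes tested was -0.02. The smallest adjusted p was 0.0214 in edgeR, so all calls lay close to the threshold. With DESeq2 size factors in place of TMM the split was 77 higher and 109 lower. Without replicate 2 or 3 at 2 dpi, or without any 1 of the 3 replicates at 4 dpi, no gene passed, and the smallest adjusted p by edgeR was then between 0.0574 and 0.128. Leaving out replicate 1 at 2 dpi left 67 higher and 118 lower, and leaving out both libraries rich in photoreceptor RNA left 0. All 234 genes kept their direction and an unadjusted p under 0.05 in each of the 27 alternatives, these included. The genes were chosen on these libraries, and the alternatives refit the same libraries or a part of them, so this is no independent support. These limits apply to every call below. Values in parentheses after a gene are its log2 fold change from 2 to 4 dpi, the standard error and the adjusted p of edgeR over all genes tested.

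**Figure D1:**
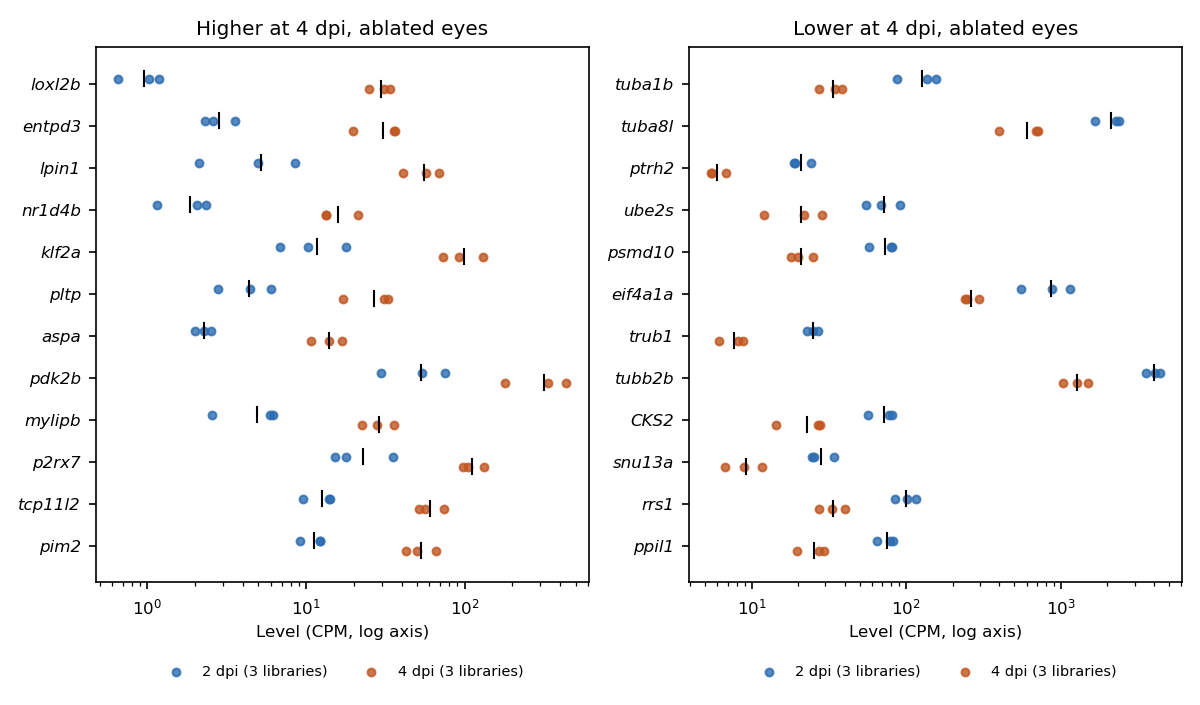
Levels of the 12 genes with the highest and the 12 with the lowest log2 fold changes among named genes that passed the test, in the 6 ablated libraries. Each point is a library, each black line the mean of 3, and the horizontal axis is the level in CPM on a log scale. In all 24 genes the points of the 2 times do not overlap, as the rule for choosing them required.

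Genes of the microtubule and 2 regulators of cell division fell. Tubulins are the subunits of microtubules and of the mitotic spindle. tuba1b (ENSDARG00000045367, chromosome 23, 35713557 to 35716519 on GRCz11) stood at 87.4, 155 and 137 CPM at 2 dpi and 38.65, 27.4 and 34.4 CPM at 4 dpi, tuba8l at 1660.4, 2376 and 2264 CPM at 2 dpi and 688, 399 and 715 CPM at 4 dpi, and the beta tubulin gene tubb2b at 3555, 4351 and 4060.4 CPM at 2 dpi and 1281, 1034 and 1502 CPM at 4 dpi. In these 3 genes every library at 4 dpi lay well under every library at 2 dpi. Their log2 fold changes were -1.92, SE 0.31, edgeR adjusted p = 0.0273, then -1.81, SE 0.31, edgeR adjusted p = 0.0308, and -1.65, SE 0.20, edgeR adjusted p = 0.0214, in that order. Of the 12 alpha and beta tubulin genes tested, a family drawn by symbol after values were seen, 4 fell, with tuba8l4 (-1.26) the last of them. For comparison, 0.918% of all genes tested fell. Tubulin genes are close copies of each other, and how reads were divided among them is not known, so values of single tubulin genes are uncertain. CKS2 (ENSDARG00000117089, chromosome 21, 3003753 to 3007412), a subunit of the cyclin-dependent kinases, fell from 56.2, 77.1 and 80.8 CPM to 26.9, 14.4 and 27.5 CPM (-1.64, SE 0.33, edgeR adjusted p = 0.0456). ube2s, the ubiquitin-conjugating enzyme that works with the anaphase-promoting complex, fell from 54.6, 69.0 and 91.3 to 21.8, 11.98 and 28.5 CPM (-1.79, SE 0.33, edgeR adjusted p = 0.0366). Both genes were lowest in replicate 2 at 4 dpi, the library with the most photoreceptor RNA. With the photoreceptor share as a covariate their log2 fold changes were -1.71 and -1.84, and both stayed past the test (adjusted p 0.0216 and 0.0222 by edgeR). Without both ablated libraries rich in photoreceptor RNA they were -1.54 and -1.67, and neither passed (adjusted p 0.142 and 0.0958). Here and below, fewer cells of a kind and less RNA per cell cannot be told apart in a sorted pool.

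All 60 tested genes of the mitosis and cytokinesis list had lower values at 4 dpi, but none passed the test. The list has 61 genes in the files, and the median log2 fold change of the 60 tested was -1.61. In 60 of 60 the 3 libraries at 4 dpi lay under the 3 at 2 dpi, against 16.4% of all genes tested. At an unadjusted p under 0.05, 16 of the 60 were lower, against 9.30% of all genes. The mitotic kinase gene plk1 stood at 302, 481 and 477 CPM at 2 dpi and 132, 48.1 and 129 CPM at 4 dpi (-2.03, SE 1.19, edgeR adjusted p = 0.524). cdc25b, the phosphatase that activates the mitotic kinase, stood at 369, 596 and 475 CPM at 2 dpi and 285, 234 and 299 CPM at 4 dpi (-0.82, SE 0.25, edgeR adjusted p = 0.142). mki67, a proliferation marker, stood at 92.6, 237 and 249 CPM at 2 dpi and 71.1, 43.7 and 72.3 CPM at 4 dpi (-1.63, SE 0.61, edgeR adjusted p = 0.242). In plk1, cdc25b and mki67 the 2 times did not overlap and replicate 2 at 4 dpi was the lowest. The count of calls depended on the tool and on the libraries fitted. The 12-library edgeR fit draws its spread from all 4 groups. In unablated eyes at 4 dpi plk1 stood at 0, 6.28 and 3.13 CPM. How far such low values widened the errors was not tested. With only the 6 ablated libraries edgeR called 0 of the 60, or 3 lower on the genes of the 12-library filter, an alternative added after seeing the data. On the same 6 libraries DESeq2 called 57 lower and limma voom with quality weights 33, also added after seeing the data. DESeq2 on all 12 libraries called 7 members lower and limma voom with quality weights 54, and neither called any higher. Called genes of the mitotic apparatus outside the list, named after their values were seen, were the checkpoint gene bub3 (-1.13, SE 0.23, edgeR adjusted p = 0.0443), mapre1b, which binds growing microtubule ends (-1.22, SE 0.24, edgeR adjusted p = 0.0407), and MZT1 of the gamma-tubulin complex (-0.92, SE 0.16, edgeR adjusted p = 0.0309).

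Genes of DNA replication and nucleotide supply were lower too, and 1 of the 51 tested passed in edgeR, against 0.918% of all genes tested that fell. DESeq2 called 9 of them lower and limma voom with quality weights 29. On only the 6 ablated libraries, added after seeing the data, these tools called 34 and 21 lower. In 42 of the 51 tested the 2 times did not overlap, all with lower values at 4 dpi, against 16.4% of all genes tested, and the median log2 fold change was -0.99. The member that fell was rpa3, a subunit of the protein that binds single-stranded DNA, from 121, 108 and 73.2 to 37.9, 36.7 and 49.5 CPM (-1.28, SE 0.25, edgeR adjusted p = 0.0423). pcna, the sliding clamp of the replication fork, stood at 955, 1134 and 731 CPM at 2 dpi and 425, 340.5 and 452 CPM at 4 dpi without overlap but did not pass (-1.21, SE 0.39, edgeR adjusted p = 0.172). The share of all counts taken by the mitosis list was 0.409, 0.629 and 0.545% at 2 dpi and 0.203, 0.119 and 0.213% at 4 dpi. For the replication list it was 0.513, 0.616 and 0.419% and 0.262, 0.248 and 0.281%. Chromatin proteins abundant in dividing cells were among the genes that fell, named after their values were seen: hmga1a (-1.20), hmgn2 (-1.17), hmgb2b (-1.06) and the nuclear lamina gene lmnb2 (-0.97), with edgeR adjusted p of 0.0309 to 0.0342.

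**Figure D2:**
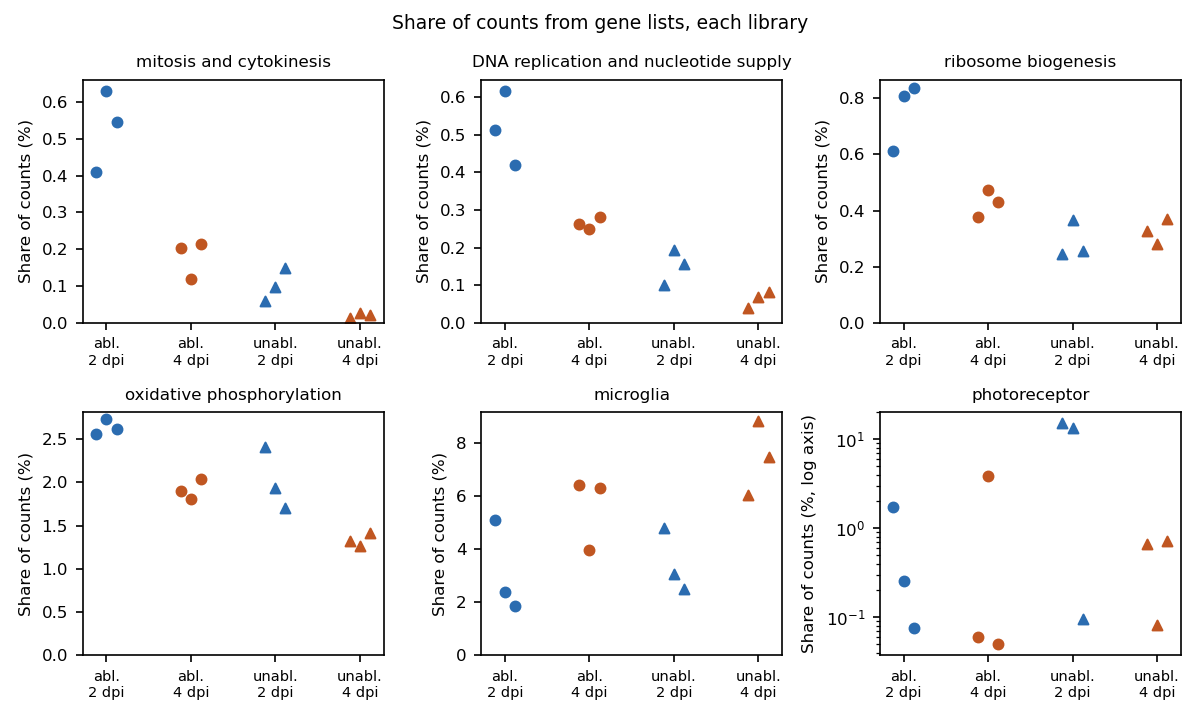
Share of all counts of a library taken by 6 gene lists, in percent. Circles are ablated and triangles unablated libraries, blue at 2 dpi and orange at 4 dpi, with 3 libraries in each column in replicate order. The mitosis share was 0.409% to 0.629% in ablated libraries at 2 dpi and 0.119% to 0.213% at 4 dpi, and the photoreceptor panel has a log axis.

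Ribosome assembly factors fell at 4 dpi, while most ribosomal proteins did not pass the test. Of 52 ribosome biogenesis genes tested 7 fell and none rose, against 0.918% of all genes tested that fell. In 41 of the 52 the times did not overlap and the values were lower, against 16.4% of all genes tested, and the median log2 fold change was -0.87. The 4 core proteins of the H/ACA particle, which guides pseudouridine into ribosomal RNA, were all among the 7. They were dkc1, the pseudouridine synthase (-1.35, SE 0.26, edgeR adjusted p = 0.0407), and its partners gar1 (-1.40, SE 0.29, edgeR adjusted p = 0.0497), nhp2 (-1.17, SE 0.22, edgeR adjusted p = 0.0397) and nop10 (-0.94, SE 0.17, edgeR adjusted p = 0.0352), the first 3 of them named after their values were seen. dkc1 stood at 247, 343 and 334 CPM at 2 dpi and 102, 126 and 134 CPM at 4 dpi, and nop10 at 177, 189 and 168 CPM at 2 dpi and 91.3, 87.5 and 99.3 CPM at 4 dpi. In both genes each library at 4 dpi was well under the lowest at 2 dpi. The other 3 were fbl, which methylates ribosomal RNA, from 395, 507 and 529.6 to 154, 232 and 212 CPM (-1.26, SE 0.22, edgeR adjusted p = 0.0331), the nucleoplasmin npm3 (-1.08, SE 0.18, edgeR adjusted p = 0.0308) and mrto4 of the large subunit pathway (-1.38, SE 0.24, edgeR adjusted p = 0.0331). At 4 dpi fbl, dkc1 and mrto4 were lowest in replicate 1, and npm3 and nop10 in replicate 2. DESeq2 called 20 members of the list lower and limma voom 36. With only the 6 ablated libraries edgeR called 0, and without the count filter 1. Without 1 library in turn edgeR called 0 to 12, and 0 also without unablated replicate 1 or 2 at 4 dpi. Added after seeing the data, on only the 6 ablated libraries, DESeq2 called 28 lower, limma voom 19 and edgeR on the genes of the 12-library filter 5. The list's median was between -1.01 and -0.71 in the 27 alternatives.

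Further genes of ribosome assembly and RNA modification outside the list stood among the lowest changes. rrs1 (ENSDARG00000003941, chromosome 24, 23837519 to 23839647), needed for the large subunit, stood at 84.3, 102 and 115 CPM at 2 dpi and 27.25, 33.01 and 40.4 CPM at 4 dpi (-1.58, SE 0.24, edgeR adjusted p = 0.0272). snu13a, which binds both box C/D guide RNAs and U4 RNA of the spliceosome, stood at 25.1, 34.3 and 24.6 CPM at 2 dpi and 8.98, 6.77 and 11.7 CPM at 4 dpi (-1.62, SE 0.33, edgeR adjusted p = 0.046). trub1, a pseudouridine synthase of transfer and messenger RNA, stood at 22.7, 25.1 and 27.0 CPM at 2 dpi and 6.18, 8.22 and 8.74 CPM at 4 dpi (-1.69, SE 0.27, edgeR adjusted p = 0.0273). None of these 3 genes overlapped between the times. nop16, wdr18, fcf1, emg1 and rpf1, also of ribosome assembly and named after their values were seen, fell by log2 fold changes of -1.38 to -1.002. The direction was not general, since the assembly factors gtpbp4 (0.84, SE 0.15, edgeR adjusted p = 0.0332) and nsa2 (0.97, SE 0.13, edgeR adjusted p = 0.0214), named after their values were seen, rose. Among 89 cytosolic ribosome genes tested the median log2 fold change was 0.17, with 79 higher and 10 lower in sign. Of all genes tested 8791 were higher and 9238 lower in sign. In this list 1 passed: rpl7l1, which is named for its likeness to a ribosomal protein, fell (-0.99, SE 0.17, edgeR adjusted p = 0.0308). That is 1.12% of the list, near the 0.918% of all genes tested that fell. By DESeq2 18 of the 89 were called higher and 1 lower, and by limma voom 10 higher and 3 lower.

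Genes of translation initiation and of protein quality control were among those that fell. eif4a1a (ENSDARG00000092115, chromosome 7, 26510827 to 26518086), the helicase that unwinds messenger RNA for the ribosome, stood at 551, 882 and 1146 CPM at 2 dpi and 298, 241 and 247 CPM at 4 dpi (-1.71, SE 0.31, edgeR adjusted p = 0.0333). The cap-binding gene eif4e1c fell (-1.49, SE 0.26, edgeR adjusted p = 0.0309), while eif4ebp3, which binds and restrains cap-binding proteins, rose (1.42, SE 0.25, edgeR adjusted p = 0.0333), and mknk2b, a kinase of the cap-binding protein, rose too (1.92, SE 0.32, edgeR adjusted p = 0.0308). These 3 were named after their values were seen. psmd10, a chaperone of proteasome assembly, stood at 57.4, 80.3 and 79.3 CPM at 2 dpi and 19.98, 17.9 and 25 CPM at 4 dpi (-1.79, SE 0.27, edgeR adjusted p = 0.0272). Of 42 genes tested with the symbols of proteasome subunits, 8 fell and none rose, against 0.918% of all genes tested that fell. psmd10 was among the 42, whose median was -0.84. Both subunits of the mitochondrial chaperonin fell, hspd1 (-1.49, SE 0.27, edgeR adjusted p = 0.0342) and its lid hspe1 (-1.28, SE 0.24, edgeR adjusted p = 0.0395). Of 21 cytosolic aminoacyl-tRNA synthetases, which charge transfer RNAs, 4 fell, tars, qars, yars and hars, at -1.38 to -1.07. The proteasome and synthetase families were drawn by symbol after values were seen, and a count in such a family is a description only.

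Genes of the splicing machinery fell in number. Of 23 tested Sm and LSm proteins, the rings that form the core of spliceosomal particles, 15 fell and none rose. Their median log2 fold change was -1.08, and 0.918% of all genes tested fell. This family and its named members snrpd1 and snrpb were picked after values were seen. snrpd1 stood at 119.8, 128 and 119.8 CPM at 2 dpi and 43.5, 46.0 and 55.5 CPM at 4 dpi (-1.34, SE 0.21, edgeR adjusted p = 0.0273), and snrpb at 282, 297 and 298 CPM at 2 dpi and 109, 136 and 146 CPM at 4 dpi (-1.16, SE 0.18, edgeR adjusted p = 0.0272). The values at 4 dpi were close to each other in both genes and clear of those at 2 dpi. ppil1, a peptidyl-prolyl isomerase of the spliceosome, fell from 64.5, 78.3 and 82.3 to 19.6, 27.4 and 29.3 CPM (-1.56, SE 0.29, edgeR adjusted p = 0.0367). Among 24 tested heterogeneous nuclear ribonucleoproteins, which coat new transcripts, 5 fell at log2 fold changes of -1.46 to -0.82, the lowest being hnrnpa0b, and none rose. This family and its lowest member were also picked after values were seen. magoh of the exon junction complex (-1.31, SE 0.18, edgeR adjusted p = 0.0214) and the splicing factor srsf3b (-1.08, SE 0.19, edgeR adjusted p = 0.0331), named after their values were seen, fell as well.

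Of 101 oxidative phosphorylation genes tested 2 fell, and no gene of the mitochondrial genome passed. In this list 94 genes were lower in sign, 78 of them without overlap against 16.4% of all genes tested, and the median was -0.47. DESeq2 called 21 members lower and limma voom with quality weights 47. On only the 6 ablated libraries, added after seeing the data, these tools called 44 and 11 of 98 tested lower. The 2 edgeR calls are 1.98% of the list, against 0.918% of all genes tested. Both called genes encode the c subunit of the ATP synthase rotor: atp5mc1 stood at 827, 1004 and 910.2 CPM at 2 dpi and 449.8, 385 and 555 CPM at 4 dpi (-0.98, SE 0.17, edgeR adjusted p = 0.0332), and atp5mc3a at 628, 750.3 and 784 CPM at 2 dpi and 357, 309 and 437 CPM at 4 dpi (-0.97, SE 0.15, edgeR adjusted p = 0.0273). In neither gene did the 2 times overlap. Of 74 mitochondrial ribosomal proteins 8 fell and of 24 genes of mitochondrial protein import 6 fell, none rising, both families drawn after values were seen. ptrh2, a mitochondrial peptidyl-tRNA hydrolase, stood at 24.2, 18.8 and 19.2 CPM at 2 dpi and 5.53, 5.47 and 6.82 CPM at 4 dpi (-1.80, SE 0.33, edgeR adjusted p = 0.0342). The 13 mitochondrially encoded genes had a median of -0.10 with none past the test in edgeR. At an unadjusted p under 0.05, 4 were lower, against 9.30% of all genes tested. DESeq2 called 2 lower, and limma voom 1 higher and 4 lower. In glycolysis, ldha, the enzyme that makes lactate, fell from 255, 390.4 and 475 to 134, 179 and 139.7 CPM (-1.31, SE 0.27, edgeR adjusted p = 0.046), 1 of 32 tested with a median of -0.32. pdk2b (ENSDARG00000059054, chromosome 19, 5674907 to 5687743), a kinase that shuts the pyruvate dehydrogenase complex, rose from 29.9, 54.0 and 75.4 to 335, 438 and 179.9 CPM (2.58, SE 0.52, edgeR adjusted p = 0.0459).

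**Figure D3:**
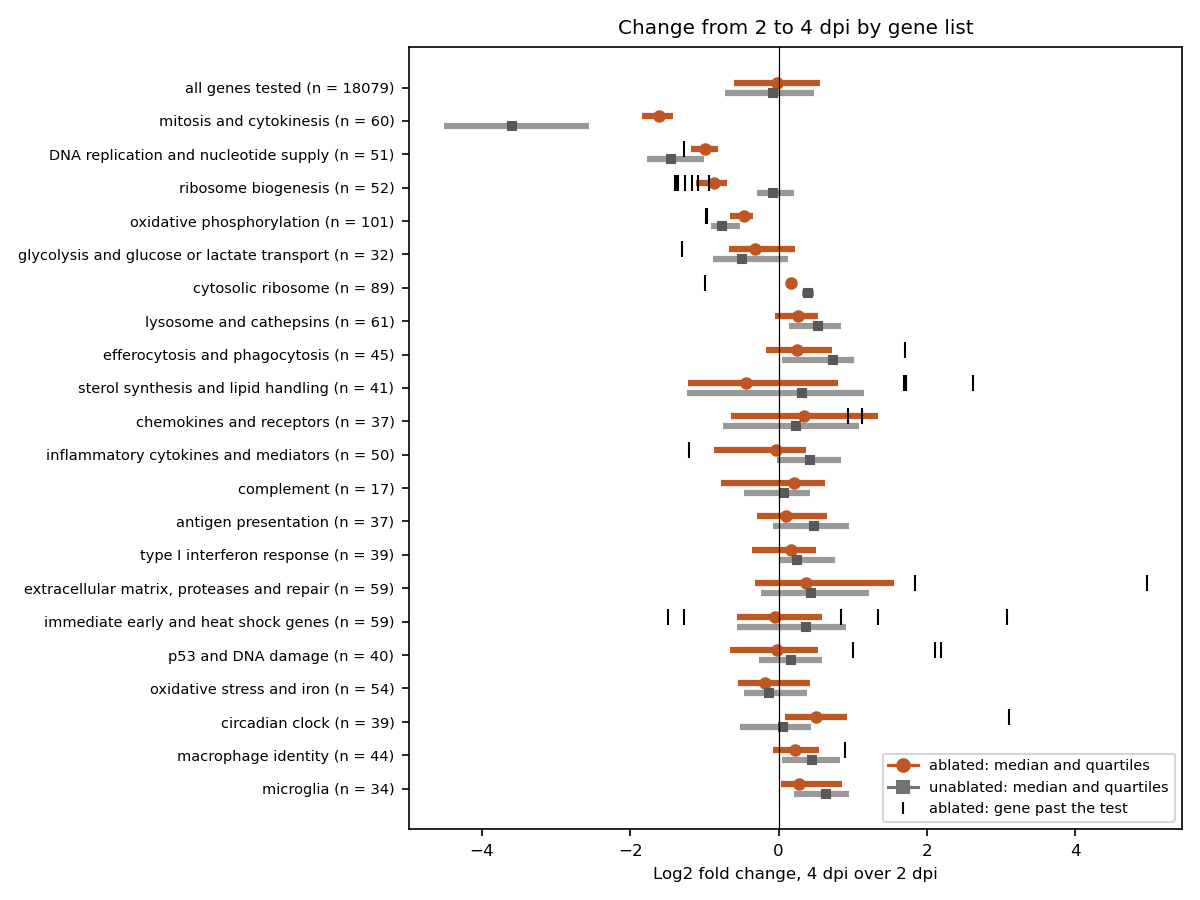
Log2 fold change from 2 to 4 dpi by gene list: median (point) and middle 50% of genes (bar) in ablated (orange) and unablated (grey) eyes, with black ticks for single genes past the test in ablated eyes. The number tested stands beside each list. In ablated eyes the mitosis list lies at a median of -1.61 without a tick, and ribosome biogenesis at -0.87 with 7 ticks.

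The largest rise among genes named by the rule was that of an extracellular matrix gene. loxl2b (ENSDARG00000044074, chromosome 5, 27434601 to 27490499), a lysyl oxidase-like enzyme that crosslinks collagen, stood at 1.19, 1.02 and 0.652 CPM at 2 dpi and 33.6, 31.1 and 24.8 CPM at 4 dpi. Levels were near 1 CPM in the 3 libraries at 2 dpi and over 20 CPM in all 3 at 4 dpi (4.96, SE 0.51, edgeR adjusted p = 0.0214). mmp14b, a membrane-bound protease that cuts collagen, rose from 37.2, 28.1 and 18.95 to 122, 74.9 and 106 CPM (1.84, SE 0.27, edgeR adjusted p = 0.0243). These 2 were the members called among 59 tested genes of matrix, proteases and repair, none of which fell, and the list's median was 0.37. Among all genes tested 0.376% rose. The protease gene mmp13a_1, named after its values were seen, had a wide error: it stood at 16.1, 14.7 and 66.1 CPM at 2 dpi and 5.30, 4.48 and 0.325 CPM at 4 dpi (-3.26, SE 1.46, edgeR adjusted p = 0.351).

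Some genes of lipid handling, among them a nuclear receptor, rose. pltp (ENSDARG00000104495, chromosome 6, 55357188 to 55393309), which transfers phospholipid to lipoproteins, stood at 5.99, 2.76 and 4.43 CPM at 2 dpi and 31.2, 17.01 and 32.7 CPM at 4 dpi (2.62, SE 0.35, edgeR adjusted p = 0.0214). abca1a (ENSDARG00000074635, chromosome 1, 52560549 to 52628407), the pump that loads cholesterol onto apolipoprotein, stood at 176, 121 and 109 CPM at 2 dpi and 492, 425 and 423 CPM at 4 dpi (1.72, SE 0.29, edgeR adjusted p = 0.0308). pparg, a nuclear receptor of lipid metabolism, stood at 19.5, 14.02 and 12.7 CPM at 2 dpi and 65.0, 38.5 and 45.5 CPM at 4 dpi (1.69, SE 0.26, edgeR adjusted p = 0.0272). In these 3 genes the 4 dpi libraries were all above the 2 dpi libraries, and replicate 2 was lowest at 4 dpi in pltp and pparg. They were the 3 called of 41 tested genes of sterol synthesis and lipid handling, against 0.376% of all genes tested that rose. None fell, yet the list's median was -0.44, with 24 of the 41 lower in sign. The median ranged from -0.75 to 0.07 in the alternatives. The sterol synthesis genes sc5d (-2.87, SE 0.73, edgeR adjusted p = 0.0871), mvda (-1.89, SE 0.54, edgeR adjusted p = 0.123) and cyp51 (-2.35, SE 0.94, edgeR adjusted p = 0.278) were lower but did not pass, and were named after their values were seen. scarb1, a scavenger receptor for lipoproteins, rose (1.70, SE 0.33, edgeR adjusted p = 0.042) and was the 1 call among 45 genes of efferocytosis and phagocytosis. lpin1 (ENSDARG00000020239, chromosome 17, 30442518 to 30470271), a phosphatidate phosphatase of glycerolipid synthesis, stood at 8.48, 2.11 and 5.01 CPM at 2 dpi and 56.7, 68.9 and 41.1 CPM at 4 dpi (3.42, SE 0.65, edgeR adjusted p = 0.0397). apoeb, an apolipoprotein abundant in microglia, stood at 23055, 6653 and 6699 CPM at 2 dpi and 35055, 18148 and 32948 CPM at 4 dpi, and replicate 1 at 2 dpi lay above replicate 2 at 4 dpi (1.24, SE 0.52, edgeR adjusted p = 0.306).

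Regulators of autophagy, nutrient stress and survival rose. sesn1 (ENSDARG00000020693, chromosome 20, 32152355 to 32231157), a sestrin that restrains the growth kinase mTORC1, stood at 204, 129 and 109 CPM at 2 dpi and 740.3, 589 and 572 CPM at 4 dpi (2.11, SE 0.28, edgeR adjusted p = 0.0214). tp53inp1, a target of p53 that takes part in autophagy, stood at 9.07, 4.81 and 3.21 CPM at 2 dpi and 28.3, 32.5 and 17.2 CPM at 4 dpi (2.19, SE 0.45, edgeR adjusted p = 0.0478). mcl1a, which protects against apoptosis, stood at 475, 350.3 and 386 CPM at 2 dpi and 779.6, 749 and 887 CPM at 4 dpi (1.00, SE 0.18, edgeR adjusted p = 0.0337). All 3 were clear of overlap, and they were the calls among 40 tested genes of p53 and DNA damage, with none lower and a median of -0.03. For comparison, 0.376% of all genes tested rose. The p53 targets cdkn1a (-0.49, SE 0.50, edgeR adjusted p = 0.797) and mdm2 (0.04, SE 0.27, edgeR adjusted p = 0.989), named after their values were seen, did not pass. In a family of 68 tested genes of autophagy and nutrient stress, drawn after values were seen, 7 rose and none fell, with a median of 0.54. Besides sesn1, tp53inp1, pdk2b and eif4ebp3 these were ulk2, a kinase that starts autophagy (1.94, SE 0.40, edgeR adjusted p = 0.0464), the autophagy receptor nbr1a (1.45, SE 0.30, edgeR adjusted p = 0.0485) and bnip3lb, a receptor for removal of mitochondria (1.52, SE 0.26, edgeR adjusted p = 0.0308). Genes that hold back division rose too, btg1 (1.35, SE 0.19, edgeR adjusted p = 0.0214) and, named after its values were seen, the repressor hbp1 (1.73, SE 0.23, edgeR adjusted p = 0.0214).

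Several transcription factors rose. klf2a (ENSDARG00000042667, chromosome 22, 15898221 to 15900919), a Krüppel-like factor linked to quiescence in mammalian immune cells, stood at 10.3, 17.9 and 6.88 CPM at 2 dpi and 131, 72.6 and 92.5 CPM at 4 dpi (3.08, SE 0.62, edgeR adjusted p = 0.0456). nr1d4b, a nuclear receptor of the Rev-erb family of the circadian clock, stood at 2.05, 1.15 and 2.35 CPM at 2 dpi and 13.4, 21.3 and 13.3 CPM at 4 dpi (3.11, SE 0.48, edgeR adjusted p = 0.0273). Neither gene overlapped between the times. nr1d4b was the 1 call among 39 clock genes tested, whose median was 0.51, while 0.376% of all genes tested rose. The clock share of counts was highest in replicate 2 at 4 dpi, at 0.365% against 0.102% to 0.196% in the other 5 libraries. No hour of sampling is given. cebpa, a factor of myeloid differentiation, stood at 774, 810.4 and 608 CPM at 2 dpi and 1410.3, 1359 and 1324 CPM at 4 dpi (0.90, SE 0.18, edgeR adjusted p = 0.046) and was the 1 call among 44 tested macrophage identity genes. Within the immediate early and heat shock list, klf2a and btg1 rose, zfp36l1a, which speeds decay of cytokine messenger RNA, rose (0.84, SE 0.17, edgeR adjusted p = 0.0492), and the chaperonin genes hspd1 and hspe1 fell, so its 5 calls of 59 were split. Of all genes tested 0.376% rose and 0.918% fell, together 1.29%.

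Genes that handle extracellular ATP were among the highest changes. entpd3 (ENSDARG00000035309, chromosome 16, 8258203 to 8280885), an enzyme that breaks down extracellular nucleotides, stood at 3.56, 2.60 and 2.29 CPM at 2 dpi and 36.3, 19.7 and 35.6 CPM at 4 dpi (3.44, SE 0.65, edgeR adjusted p = 0.039). p2rx7 (ENSDARG00000042440, chromosome 8, 30758169 to 30779101), the ATP-gated channel of macrophages, stood at 35.3, 15.2 and 17.8 CPM at 2 dpi and 133, 98.1 and 105 CPM at 4 dpi (2.30, SE 0.35, edgeR adjusted p = 0.0272). No library at 4 dpi reached down to the highest at 2 dpi in either gene. Of 37 tested chemokine and chemokine receptor genes 2 rose and none fell, against 0.376% of all genes tested that rose. Their median was 0.34. cxcr4b, the receptor for the chemokine Cxcl12, stood at 319, 444 and 324 CPM at 2 dpi and 752, 965 and 662 CPM at 4 dpi (1.13, SE 0.20, edgeR adjusted p = 0.0322), highest in replicate 2 at 4 dpi. ccr12a, a chemokine receptor gene, stood at 191, 208 and 151 CPM at 2 dpi and 405, 299.7 and 353 CPM at 4 dpi (0.94, SE 0.20, edgeR adjusted p = 0.0497). il10rb, a subunit of the receptor for interleukin 10, rose as well (1.29, SE 0.17, edgeR adjusted p = 0.0214; named after its values were seen).

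The rest of the 12 highest were enzymes and regulators of varied function. aspa, which splits N-acetylaspartate, stood at 2.28, 2.50 and 2.01 CPM at 2 dpi and 13.99, 10.8 and 16.9 CPM at 4 dpi (2.62, SE 0.44, edgeR adjusted p = 0.0308). mylipb, a ubiquitin ligase whose mammalian relative degrades the LDL receptor, stood at 2.55, 5.92 and 6.18 CPM at 2 dpi and 22.4, 35.7 and 27.8 CPM at 4 dpi (2.55, SE 0.47, edgeR adjusted p = 0.0342). pim2, a kinase of the Pim family, stood at 12.3, 9.22 and 12.3 CPM at 2 dpi and 42.4, 50.2 and 65.5 CPM at 4 dpi (2.23, SE 0.46, edgeR adjusted p = 0.0497). In all 3 the libraries at 4 dpi lay above those at 2 dpi, as the rule for naming them required. tcp11l2 stood at 14.2, 13.9 and 9.54 CPM at 2 dpi and 74.3, 56.1 and 51.2 CPM at 4 dpi (2.27, SE 0.39, edgeR adjusted p = 0.0309). A called locus outside the naming rule, mentioned after its values were seen, was si:dkey-262j3.7 (ENSDARG00000104141, chromosome 14, 2119162 to 2202652). It gave 0 counts in all 3 libraries at 2 dpi and averaged 15.9 CPM at 4 dpi, which is at least 179-fold higher when 3 counts are set as the floor of each library at 2 dpi.

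Genes that identify these cells and genes of inflammation mostly did not pass. mpeg1.1 (-0.10, SE 0.21, edgeR adjusted p = 0.946), the receptor gene csf1ra (-0.05, SE 0.27, edgeR adjusted p = 0.984) and the microglial purine receptor p2ry12 (0.57, SE 0.31, edgeR adjusted p = 0.476) were not called. csf1rb stood at 48.0, 31.8 and 27.12 CPM at 2 dpi and 85.2, 65.2 and 85.3 CPM at 4 dpi without overlap, just short of the threshold (1.14, SE 0.26, edgeR adjusted p = 0.0656). c1qa, a chain of complement C1q, stood at 50.8, 51.9 and 45.8 CPM at 2 dpi and 123, 73.7 and 135 CPM at 4 dpi, also without overlap (1.16, SE 0.27, edgeR adjusted p = 0.0689). Of 34 tested microglia genes 26 were higher in sign with a median of 0.28 and none passed in edgeR, with 8 at an unadjusted p under 0.05 in the higher and 1 in the lower direction, 4 called higher by DESeq2, and 8 higher and 1 lower by limma voom. The 61 lysosome and cathepsin genes had a median of 0.26, with 0 called in edgeR, 7 higher at an unadjusted p under 0.05, and 4 and 5 called higher by DESeq2 and limma voom. Of 44 tested macrophage identity genes 30 were higher and 14 lower in sign, with a median of 0.23. In edgeR 1 of them was called, cebpa, and 8 were higher and 0 lower at an unadjusted p under 0.05. No alternative called more than 13 of them higher or more than 1 lower. For comparison with these lists, 4.76% of all genes tested were higher and 9.30% lower at an unadjusted p under 0.05. The microglia list took 5.08, 2.39 and 1.85% of counts at 2 dpi and 6.41, 3.98 and 6.29% at 4 dpi, so replicate 1 at 2 dpi lay above replicate 2 at 4 dpi, the pair of libraries with the most photoreceptor RNA.

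Among 50 tested inflammatory cytokines and mediators the median was -0.04 and 1 gene fell, against 0.918% of all genes tested. It was hmgb2a (-1.21, SE 0.19, edgeR adjusted p = 0.0279), which is a chromatin protein as well as a mediator. il1b, the interleukin 1 beta gene, stood at 113, 64.5 and 39.6 CPM at 2 dpi and 43.0, 29.2 and 38.9 CPM at 4 dpi (-0.97, SE 0.34, edgeR adjusted p = 0.205), and the 2 times overlapped. tnfa stood at 1.99, 0.494 and 0.86 CPM at 2 dpi and 1.88, 0.636 and 1.42 CPM at 4 dpi (0.23, SE 1.02, edgeR adjusted p = 0.979), and il10 at 1.22, 1.68 and 2.56 CPM at 2 dpi and 2.11, 3.15 and 2.096 CPM at 4 dpi (0.43, SE 0.64, edgeR adjusted p = 0.897). Both genes were under 4 CPM in every library. Type I interferon genes (39 tested, median 0.16), antigen presentation (37 tested, 0.09), complement (17 tested, 0.21) and oxidative stress and iron (54 tested, -0.18) had no member past the test in edgeR. At an unadjusted p under 0.05 these 4 lists held 0, 2, 3 and 3 higher and 1, 1, 1 and 11 lower members, against 4.76% higher and 9.30% lower of all genes tested. DESeq2 called 0, 1, 3 and 1 higher and 0, 1, 0 and 1 lower, and limma voom 0, 2, 3 and 3 higher and 1, 1, 1 and 9 lower.

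Among lists of other cells, calls came from the Müller glia list alone, and from which cells the RNA of the called genes came was not tested. In the Müller glia list slc1a3a, a glutamate transporter (1.66, SE 0.26, edgeR adjusted p = 0.0273), and zfp36l1a rose, 2 of 34 tested, against 0.376% of all genes tested. The Müller genes glula and rlbp1a differed in pattern: glula was abundant, at 5046, 1894 and 1125 and 5637, 2906 and 5135 CPM, and rlbp1a followed photoreceptor RNA, at 45.7, 1.78 and 0.0261 and 0.057, 21.9 and 0.177 CPM. The called slc1a3a did not follow rlbp1a, at 45.1, 42.7 and 28.1 CPM at 2 dpi and 124, 105 and 136 CPM at 4 dpi. None of the 63 tested photoreceptor genes passed in edgeR, 0 had an unadjusted p under 0.05, 0 were called by DESeq2 or limma voom, and all 63 overlapped between the times. The rod opsin gene rho stood at 2602, 6.32 and 3.36 CPM at 2 dpi and 0, 18593 and 3.13 CPM at 4 dpi, so 1 library of each time held nearly all of it. Neutrophil genes (23 tested, median -0.85), lymphocyte genes (23, -0.05), inner retinal neuron genes (48, 0.52), vascular genes (33, 0.85), epithelial genes (48, -0.08), RPE genes (33, -0.02) and genes of pigment cells (24, -0.05), lens (13, -0.23) and red cells (5, 3.04) had no call in edgeR. At an unadjusted p under 0.05 these 9 lists held 15 higher and 11 lower members, against 4.76% higher and 9.30% lower of all genes tested. DESeq2 called 9 higher and 2 lower, and limma voom 8 higher and 8 lower. The medians of 8 of the 9 lists, all but the vascular one, took both signs over the alternatives. Of the 15 higher and 11 lower members at an unadjusted p under 0.05, the neutrophil list with 23 tested held 5 and 4, so it lay above the shares of all genes in both directions. The neutrophil gene mpx stood at 7.95, 0 and 33.7 CPM at 2 dpi and 14.4, 0.0289 and 0.856 CPM at 4 dpi, and the times overlapped.

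The same time change was measured in unablated eyes, whose libraries carry the same dates, as the change with age and date in larvae without ablation. There 47 genes rose (0.26%) and 110 fell (0.608%), together 157 (0.868%), and 47 genes were called in both conditions, all in the same direction, which is 20.1% of the ablated and 29.9% of the unablated calls. Photoreceptor genes took 15.1, 13.2 and 0.095% of counts in unablated eyes at 2 dpi and 0.667, 0.082 and 0.709% at 4 dpi, so this RNA was higher in 2 of the 3 unablated libraries at the earlier time. With the photoreceptor share as a covariate the 157 unablated calls became 316. Of the 234 genes called in ablated eyes, 227 had the same sign in unablated eyes. How often the signs matched over all genes tested was not counted, so 227 is not shown to be particular to called genes. The genes that rose in ablated eyes had a median change of 1.50 there and 0.82 in unablated eyes, and the genes that fell -1.16 and -0.67. The genes were chosen on the ablated change, so a smaller median on the other side is no test. The difference between the changes was tested for every gene as an interaction, and none of 18079 passed in edgeR (smallest adjusted p 0.0577), with 1059 (5.86%) at an unadjusted p under 0.05. In this edgeR fit no change described here was therefore shown to differ between ablated and unablated eyes. At 2 dpi each ablated library shares its title date with the unablated library of the same number. With the date as a block, an alternative added after seeing the data, edgeR called 1 gene, the locus si:dkey-262j3.7. Other edgeR settings called 0 to 8, and 0 to 19 without 1 library. DESeq2 called 80, of which 7 were among the 234, namely si:dkey-262j3.7, pde4ba, dph5, pcmtd1, tcp11l2, loxl2b and mylipb. By limma voom and limma on log2(TPM + 1) 0 were called.

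Values side by side show where the conditions lay. loxl2b stood at 10.01, 9.16 and 3.18 CPM at 2 dpi and 36.2, 50.8 and 25.3 CPM at 4 dpi in unablated eyes, so it was also higher at the later time there (2.33, SE 0.45, edgeR adjusted p = 0.0456 for the unablated change), and pltp at 27.9, 31.8 and 22.02 CPM at 2 dpi and 119, 105 and 155 CPM at 4 dpi (2.22, SE 0.34, edgeR adjusted p = 0.0309). tcp11l2 stood at 77.6, 25.4 and 39.0 CPM at 2 dpi and 59.0, 46.8 and 37.96 CPM at 4 dpi, and sesn1 at 276, 297 and 182 CPM at 2 dpi and 565, 531 and 389.6 CPM at 4 dpi. Their unablated changes were 0.02 and 0.98, neither past the test. The ablated change minus the unablated one was 2.64 in loxl2b, 0.40 in pltp, 2.25 in tcp11l2 and 1.13 in sesn1. In edgeR the interaction p of loxl2b and tcp11l2 was 0.00154 and 0.00155 unadjusted and 0.811 adjusted, while DESeq2 called both. dkc1 stood at 65.1, 129.5 and 96.1 CPM at 2 dpi and 68.7, 69.8 and 96.6 CPM at 4 dpi (unablated change -0.31). The ribosome biogenesis list had a median change of -0.08 with 0 calls in unablated eyes, against -0.87 with 7 in ablated eyes, and the interaction p of 25 of its 52 genes was under 0.05 before adjustment, against 5.86% of all genes, none of them past adjustment. Mitosis genes were lower at 4 dpi in both conditions, with the lower median in unablated eyes: -3.59 with 11 calls of 60 tested, against -1.61 with 0. Of all genes tested 0.608% fell in unablated eyes. There the mitosis list took 0.0599, 0.0973 and 0.150% of counts at 2 dpi and only 0.0116, 0.0270 and 0.0200% at 4 dpi. Some members, such as kif23 and kif14, had 0 counts at 4 dpi. Changes from such low levels are uncertain in size, so -3.59 is not shown to be a stronger fall. The replication and oxidative phosphorylation lists also had the lower median in unablated eyes, at -1.45 with 6 calls and -0.76 with 18. The Sm and LSm and the proteasome families did not, at -0.97 with 8 calls and -0.51 with 0. The smallest interaction p belonged to the mitotic genes kif23, kif14 and haus4 (adjusted p 0.0577, 0.0679 and 0.0679 by edgeR). kif23, a kinesin of cytokinesis, gave 996 counts over the 3 unablated libraries at 2 dpi and 0 over those at 4 dpi, while ablated eyes held 53.4, 95.7 and 80.2 and 36.4, 15.9 and 27.6 CPM.

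**Figure D4:**
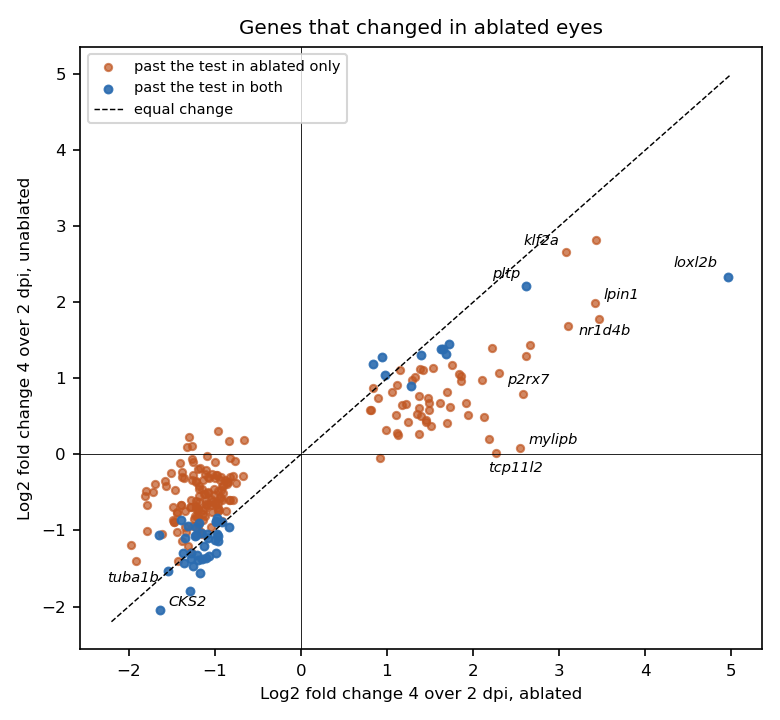
Log2 fold change from 2 to 4 dpi in unablated (vertical axis) against ablated eyes (horizontal axis) for the genes called in ablated eyes, 1 point per gene, without the locus that has 0 counts at 2 dpi. Blue genes were also called in unablated eyes (47), and the dashed line marks equal change. Of the 234 genes called, 227 share the sign of the unablated change, which was not counted over all genes tested, and loxl2b lies farthest right.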

How the data were processed

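Per the file headers, the authors deposited unscaled counts for 25281 genes, and beside them TPM values, in which counts are scaled by gene length and depth. Each of the 12 libraries has a column of both, and these 24 columns were used. GRCz11 is named in the submitters' processing notes. The aligner, the counting program and the annotation release were not found in the labels or headers. The kit named in the labels does not mark strand, so overlapping genes cannot be separated. Both time tables were joined by gene identifier. Counts were fitted with edgeR 4.0.16 (TMM, default expression filter, robust quasi-likelihood) as 4 groups of 3 libraries with 8 residual degrees of freedom, and adjusted by Benjamini-Hochberg at 0.05 over 18079 genes. Alternatives used DESeq2 1.42.0 and limma 3.58.1 (R 4.3.3). The fit was also run on simulated counts with planted changes. These lacked the photoreceptor-rich libraries and the dates of the real data, so no support for the calls is drawn from them.

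Named genes were the 12 highest and 12 lowest called, non-overlapping genes with a group mean of at least 10 CPM and no placeholder symbol (57 and 160 qualified), up to 4 called members of each list or else its 2 most abundant, the 3 smallest interaction p, and 15 set genes of cell identity, division and inflammation. Others are cell type markers or are marked as named after their values were seen. The 33 lists held 1371 of 1468 symbols written, 23 of them matched through reference name tables. The comparison, its lists and rules were chosen with earlier results of these data known, and 10 families were drawn by symbol after the values were seen. Lists are described without a test.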

Additional observations from a re-analysis of the deposited data

How the results depend on the processing

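In ablated eyes 68 genes rose and 166 fell. Higher and lower counts were 77 and 109 with DESeq2 size factors, 51 and 62 without the count filter, 106 and 249 with a strict filter, 508 and 666 by DESeq2, 548 and 1452 by limma voom with quality weights, and 169 and 255 or 139 and 201 by limma on log2(TPM + 1) or log2(TPM + 0.1). With a photoreceptor covariate they were 112 and 319, with an epcam covariate 91 and 173, without both ablated libraries over 1% photoreceptor RNA 0 and 0, and with only the 6 ablated libraries 6 and 0. Added after seeing the data, with only these 6 libraries, DESeq2 gave 917 and 1282, limma voom 448 and 611, and edgeR on 18029 of the 18079 genes 73 and 82. Without 1 library in turn the counts ranged from 0 to 145 higher and from 0 to 329 lower. The 157 unablated calls became 281 (DESeq2 size factors), 260 (strict filter), 1402 (DESeq2), 382 (limma voom), 727 and 710 (TPM), 0 (only 6 libraries), 316 (photoreceptor covariate), 27 (without both photoreceptor-rich ablated libraries) and 14 to 493 (without 1 library). The 0 interaction calls became 3 (DESeq2 size factors), 5 (no filter), 80 (DESeq2), 8 (photoreceptor covariate), 1 (title date as a block, added) and 0 to 19 (without 1 library). The causes were not tested. A replicate block gave 42 higher and 93 lower in ablated eyes, 11 unablated calls and 0 for the interaction. Same-numbered ablated libraries of the 2 times correlated at r = -0.41, -0.29 and 0.30 after group means were removed. Whether equal numbers pair libraries is not stated. These correlations cannot decide it, since values centred within groups of 3 libraries are tied to each other. Of 98 named genes tested, the 49 called kept their sign in all 27 alternatives, at 0.572 to 1.27 times the log2 fold change reported, and of the 49 others 17 changed sign and 17 passed under some alternative. The 49 called were chosen on the libraries that the alternatives reuse, so their kept sign is no independent support. The median of all genes moved by over 0.1 without ablated replicate 2 at 4 dpi (to -0.22), with only the 6 ablated libraries (to 0.08) and in the added edgeR fit (to 0.13).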

Other observations

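Further groups among the 234 genes called in ablated eyes, picked by name after their values were seen and so given as a description only, were these. Of Hsp90 co-chaperones, ahsa1b (-0.997), cdc37 (-0.93) and ptges3b (-1.44) fell. Chromatin proteins that fell were the HP1 genes cbx3a (-1.19) and cbx5 (-0.94), the histone chaperone genes seta (-0.85) and setb (-1.12), the histone H3.3 gene h3f3a (-1.18) and banf1 (-1.10), which bridges DNA at the nuclear lamina. Genes of nuclear transport that fell were ranbp1 (-1.14), nutf2l (-1.24) and the nuclear pore gene nup155 (-1.27), the last with an unablated change of 0.11. g3bp1, a stress granule protein, fell from 314, 467 and 589.6 CPM to 140.3, 190.3 and 151 CPM (-1.51, SE 0.31, edgeR adjusted p = 0.046). In mitochondria the folate enzyme gene mthfd2 fell (-1.40, SE 0.24, edgeR adjusted p = 0.0309), while slc25a32a, the folate carrier of the inner membrane, rose (1.29, SE 0.25, edgeR adjusted p = 0.04).

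Lysosomal and surface genes that rose outside the lists' calls were the phospholipase gene pla2g15 (1.12), sidt2 (1.11) and the sorting receptor gene sort1b (1.17), with the integrin gene itgae.1 (1.86), notch1a (1.54) and the transporter gene abcg2a (1.63). itgae.1 stood at 222, 191 and 202 CPM at 2 dpi and 687, 635 and 909.8 CPM at 4 dpi, and notch1a at 20.6, 22.2 and 16.4 CPM at 2 dpi and 78.0, 48.3 and 45.8 CPM at 4 dpi. Both were higher in every library at 4 dpi than in any at 2 dpi. The edgeR adjusted p of these 6 genes ranged from 0.0214 to 0.0456. With 3 libraries per time and calls that rest on nearly every library, a gene that did not pass is not shown to be unchanged, and reads of amplified cDNA are not independent molecules.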
